A study of Mus musculus with 8 samples.

Results

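The genes described here are the receptor chains that signal through the common gamma chain and the 2 Janus kinases (JAKs) bound to them. They are 9 genes chosen by symbol (Il2ra, Il2rb, Il2rg, Il7r, Il4ra, Il15ra, Il21r, Jak1 and Jak3) out of 55665 in the deposited tables, and all 9 were among the 16642 genes with enough counts to test. RNA was sequenced from mouse nTreg cells, regulatory T cells that were enriched as CD4 T cells from spleen and lymph nodes, sorted by flow cytometry as CD4+GFP+ and cultured. Every group, controls included, carried the genotype RosaCas9/+ Foxp3gfp, so that all cells held the Cas9 nuclease allele and a green fluorescent allele of Foxp3. The guide RNA was sgNC, the control, or sgFoxp3, against the transcription factor of Treg cells. With each guide, cells received DPBS alone (0 h) or antibodies to CD3 and CD28, which engage the T cell receptor (TCR), for 3 h, and the series asks how Foxp3 knockout changes expression with or without that stimulus. The 4 groups held 2 libraries each. The labels do not say that these came from separate cultures or animals, nor the age of the mice, so the p-values measure the spread between libraries, which may be technical.

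Library totals were 38729009 to 94807362 expected counts. Foxp3, whose RNA checks the guide, stood at 763.9 and 775.9 CPM (counts scaled to a common depth, with library sizes adjusted by TMM, the trimmed mean of M-values) with the control guide at 0 h and at 87.6 and 88.5 with the Foxp3 guide. At 3 h it stood at 678.8 and 673.4 against 76.1 and 71.8 CPM. In both comparisons Foxp3 fell with its guide, by 3.13 at 0 h and by 3.19 at 3 h on the log2 scale. The helper T cell markers Cd4 and Cd3e were present throughout, at 139.2 to 462.1 and 130.2 to 245.9 CPM. Natural killer cells use the Il2rb chain at high level. Their receptor genes Klra8 and Ncr1 had 0 counts, apart from 1 count of Ncr1 in 1 library. The 4 NK cell markers summed to 2.02 to 9.43 CPM, mostly from Eomes. Klrb1c had 79 and 68 counts with the Foxp3 guide at 0 h, against 2 and 1 with the control guide. Eomes was also higher with the Foxp3 guide at 0 h, by 0.32 on the log2 scale, with a sign that followed the scale. On stimulation it went from 103 and 98 to 425 and 396 counts with the control guide. At 3 h Eomes was lower with the Foxp3 guide, at 4.47 and 3.75 CPM against 9.43 and 9.35 CPM. Klrb1c then had 1 and 3 counts with the Foxp3 guide and 0 and 1 with the control guide. The 2 CD8 genes summed to 6.23 to 8.71 CPM over all 8 libraries. At 3 h both were called higher with the Foxp3 guide, beside 30.7% of all tested genes. Their sums there were 8.10 to 8.71 CPM against 6.23 to 6.42 CPM with the control guide. Of the B cell markers, Ms4a1 had at most 3 counts in any library and Cd79b stood at 0.28 to 4.15 CPM, slightly above control with the Foxp3 guide at 0 h. The list's sum was nearly all Ighm, the heavy chain gene of immunoglobulin M. At 0 h Ighm stood at 925.1 and 927.4 CPM with the control guide and at 248.6 and 251.7 CPM with the Foxp3 guide. At 3 h it stood at 87.1 and 90.2 CPM and at 27.3 and 28.8 CPM. Ighd was also lower with the Foxp3 guide at 0 h, at 3.51 and 3.49 CPM against 17.0 and 13.8 CPM. Erythroid markers rose with the Foxp3 guide, from 8.09 to 8.34 up to 64.8 to 65.6 CPM at 0 h. Stromal markers summed to 201.7 to 211.7 CPM with the control guide and 130.4 to 131.2 CPM with the Foxp3 guide at 0 h. At 3 h the stromal sums were 29.8 to 30.4 and 40.2 to 42.0 CPM. Myeloid markers summed to 2.97 CPM in both stimulated control libraries and 5.72 to 5.82 CPM in stimulated Foxp3-guide ones. The part of these shifts in the receptor results was not tested. The 5 CD4 T cell and Treg markers, which include Foxp3, summed lower with the Foxp3 guide at both times. At 0 h they held 2651 to 2660 CPM with the control guide and 1591 to 1618 CPM with the Foxp3 guide. At 3 h they held 2384 to 2417 and 1201 to 1217 CPM. The 3 TCR response markers, which check the stimulus, rose with both guides. Their control-guide sums were 45.7 to 53.5 CPM at 0 h and 2546 to 2766 CPM at 3 h. The Foxp3-guide sums were 27.2 to 29.4 and 2238 to 2334 CPM. All 3 were called lower with the Foxp3 guide at 0 h, and 1 at 3 h, beside 29.1% and 30.8% of all tested genes. In bulk RNA, fewer cells of a type and less RNA per cell cannot be told apart.

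The common gamma chain, encoded by Il2rg, is shared by the receptors of IL-2, IL-4, IL-7, IL-9, IL-15 and IL-21. Each receptor adds a private chain that binds its cytokine, and IL-2 and IL-15 also share the beta chain Il2rb. JAK1 sits on the private or beta chain and JAK3 on the gamma chain, and on binding of cytokine they phosphorylate STAT proteins, above all STAT5 for IL-2 and IL-7. Treg cells carry much of the IL-2 receptor alpha chain (CD25, from Il2ra), depend on IL-2 from other T cells, and usually carry little of the IL-7 receptor alpha chain.

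The promoters of the 3 genes with the largest changes on stimulation are shown because these genes lead the results below. They come from RefSeq (GRCm38.p6), up to 250 bases before the start of the gene, and the 250 bases before the start were searched on both strands for a STAT motif (TTCNNNGAA), the core bound by NFAT (GGAAA), an AP-1 motif (TGAGTCA) and a forkhead motif (GTAAACA). Capitals mark matches, and TTTCC is the NFAT core read on the other strand. Il2ra is at chr2:11642542-11642791 on the plus strand, and Il15ra at chr2:11705043-11705289 on the plus strand, with 3 exon bases left out. Il7r is at chr15:9529877-9530040 on the minus strand, before the RefSeq start and inside the GENCODE gene, with 86 exon bases left out.
Il2ra: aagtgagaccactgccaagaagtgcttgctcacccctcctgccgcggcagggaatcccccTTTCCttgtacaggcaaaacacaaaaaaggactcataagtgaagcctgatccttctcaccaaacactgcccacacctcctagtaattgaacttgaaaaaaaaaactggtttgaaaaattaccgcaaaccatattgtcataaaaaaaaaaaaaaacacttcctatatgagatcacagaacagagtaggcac
Il15ra: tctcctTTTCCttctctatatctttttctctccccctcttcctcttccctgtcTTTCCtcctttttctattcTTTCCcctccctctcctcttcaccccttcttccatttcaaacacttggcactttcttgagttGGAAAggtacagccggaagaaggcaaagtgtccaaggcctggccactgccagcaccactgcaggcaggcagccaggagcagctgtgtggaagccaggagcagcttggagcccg
Il7r: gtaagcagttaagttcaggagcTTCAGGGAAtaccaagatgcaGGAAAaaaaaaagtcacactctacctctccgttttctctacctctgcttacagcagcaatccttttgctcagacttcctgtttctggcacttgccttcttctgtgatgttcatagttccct
The Il2ra window held 1 NFAT core, the Il15ra window 4, and the Il7r window 1 NFAT core and 1 STAT motif. RefSeq entries were matched for 8 of the 9 genes, in 9 windows, and Il2rb was not matched. Among those windows the STAT motif was found only at Il7r, the AP-1 motif only in the other Il15ra window and the forkhead motif only at Il21r. Over the same 250 bases of all 32851 promoter entries, 7.02% held the STAT motif, 55.6% the NFAT core, 4.46% the AP-1 motif and 3.17% the forkhead motif. A match describes letters in a window and is not a measured binding site.

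With the Foxp3 guide at 0 h, the alpha and beta chains of the IL-2 receptor fell most: Il2ra RNA was 4.88-fold lower and Il2rb RNA 2.12-fold lower, while Il2rg and Jak3 fell by less. Il7r was 1.28-fold higher. In edgeR's quasi-likelihood test, called at a Benjamini-Hochberg adjusted p below 0.05, 4 of the 9 genes fell, 1 rose and 4 were not called. The same rule called 63.3% of all tested genes in this comparison, 34.2% higher and 29.1% lower, so the count for the 9 genes is near the background. Their median log2 change was -0.07, against 0.02 over all genes tested. The scale bears on the small changes: on log2(TPM + 1), with TPM (RSEM's transcript abundance) normalised for gene length but not for library composition, the median of all genes moved to -0.15. On that scale Il4ra (-0.35), Il15ra (-0.29) and Il21r (-0.31) were called lower and Il7r was not called (0.08, limma adjusted p = 0.261). Jak1 turned to -0.17 and was called lower (limma adjusted p = 0.0332).

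**Figure D1:**
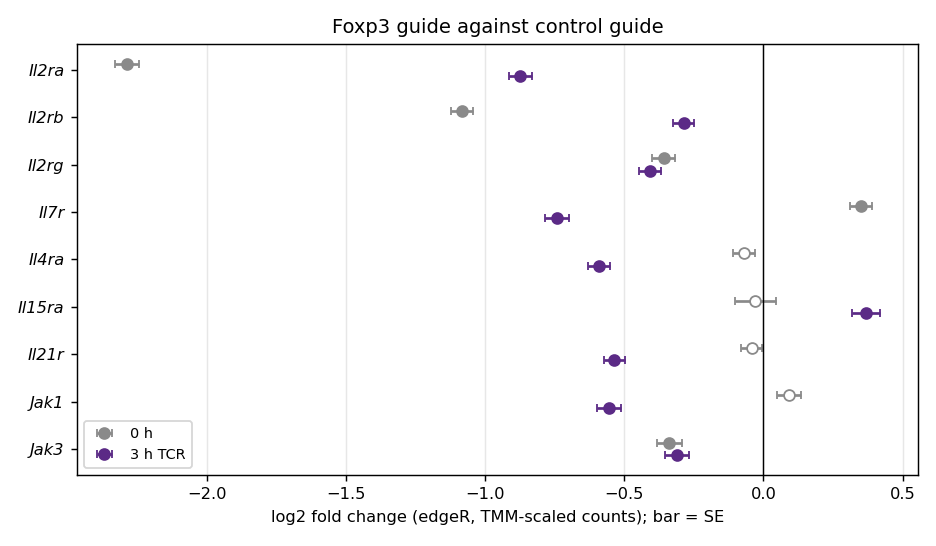
Log2 change with the Foxp3 guide against the control guide for the 9 genes at 0 h and at 3 h (points, edgeR estimate; bars, SE; open symbols, not called). At 0 h the changes run from -2.29 (Il2ra) to 0.35 (Il7r), and at 3 h 8 of the 9 lie below 0.

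At 3 h the guide effect covered the whole group. Il2ra, Il2rb, Il2rg, Il7r, Il4ra, Il21r, Jak1 and Jak3 fell and Il15ra rose, so that 8 were lower, 1 was higher and 0 were not called. Over all genes the same test called 61.5%, with 30.8% lower and 30.7% higher. The median log2 change of the 9 genes was -0.54, against -0.01 over all genes (-0.73 against -0.12 on the log2(TPM + 1) scale). Il2ra still fell most among them, by 0.87, followed by Il7r, which fell by 0.74 on the log2 scale.

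Stimulation raised some of the 9 genes and lowered others with either guide. The number called with each guide is near the share over all tested genes. In control-guide cells Il15ra, Il2ra, Il21r, Il2rg and Jak3 rose (5 genes), Il7r, Jak1, Il2rb and Il4ra fell (4 genes), and 0 were not called. Of all tested genes 81.8% were called in this comparison, 40.9% in each direction, and the median was 0.21 for the 9 genes and -0.01 over all. In Foxp3-guide cells 6 rose and 3 fell, Il2rb now being among those that rose, beside 85.4% of all genes called (40.8% higher, 44.5% lower) and medians of 0.68 and -0.07. The rise of Jak3 was small and its sign followed the scale: it was 0.21 and 0.24 with the control and Foxp3 guide on TMM-scaled counts, -0.03 and 0.06 with upper-quartile scaling, and -0.15 and -0.05 on log2(TPM + 1). The comparisons of stimulation and guide share groups of libraries, so their counts are not independent of each other.

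**Figure D2:**
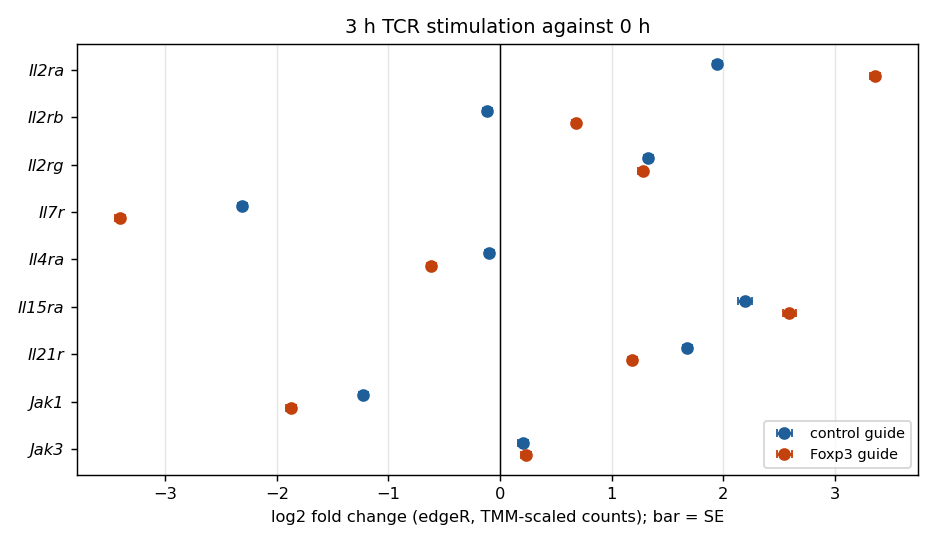
Log2 change from 0 h to 3 h of TCR stimulation for the 9 genes with the control and the Foxp3 guide (points, edgeR estimate; bars, SE; open symbols, not called). Il2ra lies at 1.95 and 3.36 and Il7r at -2.31 and -3.40 with the control and Foxp3 guide, and Il2rb is on opposite sides of 0.

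Il2ra encodes the alpha chain of the IL-2 receptor, which raises its affinity for IL-2. The gene (ENSMUSG00000026770.5) spans 11642807 to 11693193 on the plus strand of GRCm38 chromosome 2. Its level was 591.5 and 607.3 TPM in the control libraries at 0 h and 1813 and 1718 TPM at 3 h. With the Foxp3 guide it was 99.1 and 103.6 TPM at 0 h, and 850.3 and 819.9 TPM at 3 h. All Foxp3-guide libraries at 0 h lay below the control ones, and stimulated Foxp3-guide cells lay above resting control cells but below stimulated control cells, with no overlap between any of the 4 groups. In CPM the means were 1298 ± 18.5 and 265.9 ± 5.83 (SD, n = 2) at 0 h, a log2 change of -2.29 ± 0.04 (SE; edgeR quasi-likelihood test, Benjamini-Hochberg adjusted p = 7.95e-23). At 3 h they were 5014 ± 121 and 2735 ± 4.50 CPM. Stimulation raised Il2ra 3.86-fold with the control guide and 10.3-fold with the Foxp3 guide, and the test of the difference gave 1.41 ± 0.06 on the log2 scale (adjusted p = 1.84e-15). Inside Il2ra lies Gm37881, annotated as a transcript still to be verified, on the same strand (11683126 to 11683546), with 84 to 979 counts per library and guide changes of -2.28 ± 0.11 and -1.01 ± 0.07. Reads of the 2 may not be separable.

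Il2rb encodes the beta chain, which is shared by the IL-2 and IL-15 receptors and carries docking sites for STAT5. The gene (ENSMUSG00000068227.9) is on the minus strand of chromosome 15, from 78479256 to 78495271. Control libraries held 580.4 and 602.9 TPM at 0 h and 453.1 and 436.8 TPM at 3 h, against 226.5 and 218.5 TPM and then 313.03 and 300.5 TPM with the Foxp3 guide. Its order was therefore control 0 h, control 3 h, Foxp3 guide 3 h and Foxp3 guide 0 h, with gaps between all 4. The guide lowered Il2rb from 1147 ± 11.8 to 541.1 ± 2.25 CPM (SD, n = 2) at 0 h, a log2 change of -1.08 ± 0.04 (edgeR adjusted p = 1.66e-17). At 3 h the change was -0.29 ± 0.04. Stimulation moved it in opposite directions, by -0.12 ± 0.04 with the control guide (edgeR adjusted p = 0.00974) and 0.68 ± 0.04 with the Foxp3 guide, and these differed by 0.80 ± 0.06 (adjusted p = 2.03e-11).

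Il2rg, the common gamma chain gene (ENSMUSG00000031304.18), spans 101264378 to 101268255 on the minus strand of chromosome X. In control libraries it stood at 731.3 and 727.6 TPM at 0 h and 1449 and 1405 TPM at 3 h. With the Foxp3 guide it stood at 454.4 and 468.8 TPM and then 942.5 and 904.3 TPM. Both stimulated groups lay above both resting groups, and at each time the Foxp3-guide libraries lay below the control ones. The guide effect on the log2 scale was -0.36 ± 0.04 at 0 h and -0.41 ± 0.04 at 3 h. Stimulation raised Il2rg 2.51-fold and 2.43-fold with the control and Foxp3 guide. The difference between these responses was -0.05 ± 0.06, with a 95% interval of -0.16 to 0.07 (edgeR adjusted p = 0.521). Gm20489, which overlaps Il2rg on the same strand, had 0 counts in all libraries.

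**Figure D3:**
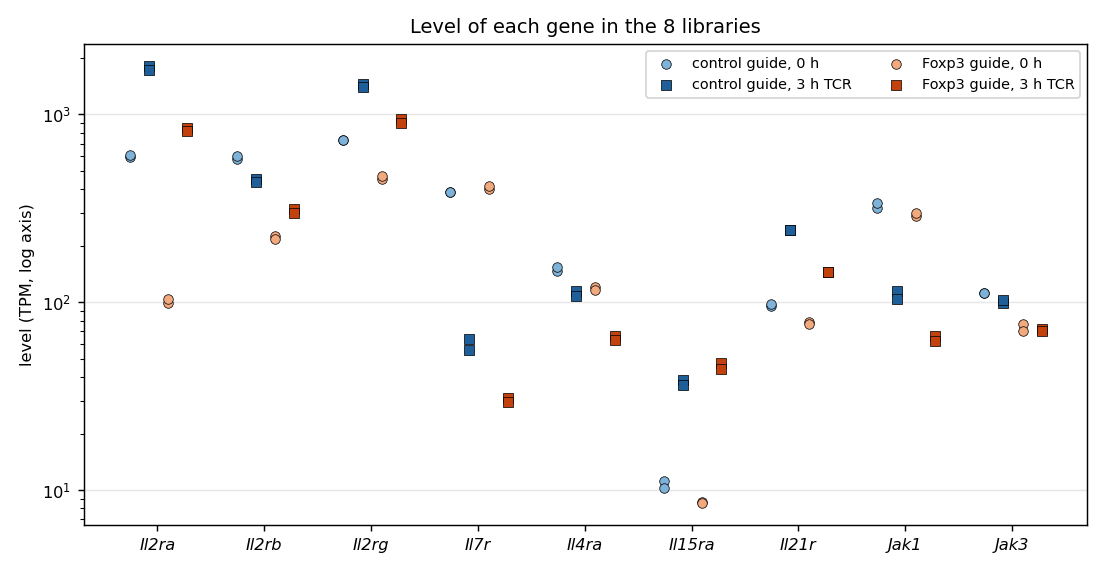
Level of each gene in TPM on a log axis, 1 point per library, in the 4 groups of guide and time. Il2ra spans the range from 99.1 to 1813 TPM, Il7r falls in both stimulated groups, and Il15ra is the lowest of the 9 in every library but those of the stimulated Foxp3-guide cells, where Il7r is lower.

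Il7r encodes the alpha chain of the IL-7 receptor, which supports survival of resting T cells. The gene (ENSMUSG00000003882.5) lies on the minus strand of chromosome 15, from 9505788 to 9530176. Its level was 384.3 and 387.3 TPM in resting control cells, and 401.7 and 415.9 TPM in resting Foxp3-guide cells. After stimulation it was 63.6 and 55.8 TPM with the control guide and 30.9 and 29.5 TPM with the Foxp3 guide. The resting groups were close together and the stimulated ones far below them. The guide effect changed sign between the times on TMM-scaled counts: Il7r rose by 0.35 ± 0.04 at 0 h (615.3 ± 8.91 to 784.9 ± 20.1 CPM; edgeR adjusted p = 5.13e-08), and changed by -0.74 ± 0.04 at 3 h. Only the fall at 3 h was also called on log2(TPM + 1). Stimulation lowered Il7r 4.96-fold with the control guide and 10.6-fold with the Foxp3 guide, a difference of -1.09 ± 0.06 on the log2 scale (edgeR adjusted p = 2.22e-13).

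Il4ra encodes the alpha chain for IL-4, also used by the IL-13 receptor. The gene (ENSMUSG00000030748.9; chromosome 7, 125552120 to 125579474, plus strand) stood at 147.7 and 154.6 TPM in resting control cells and at 120.5 and 116.6 TPM in resting Foxp3-guide cells. At 3 h the values were 115.4 and 107.6 TPM, and 66.2 and 63.1 TPM. Stimulated Foxp3-guide cells were thus the lowest group. On TMM-scaled counts the resting difference was -0.07 ± 0.04 with a 95% interval of -0.15 to 0.01 (edgeR adjusted p = 0.121), and at 3 h Il4ra was 1.51-fold lower with the Foxp3 guide. The resting difference was called lower with RLE scaling and DESeq2 (-0.13 each), upper-quartile scaling (-0.15), a filter of 1 CPM in every library (-0.088) and only the 4 libraries compared (-0.095), as well as on the TPM scale. Stimulation changed it by -0.10 ± 0.04 with the control guide (edgeR adjusted p = 0.0279) and by -0.62 ± 0.04 with the Foxp3 guide. The former call was lost without control 0 h replicate 2 (-0.077), control 3 h replicate 2 (-0.065) or Foxp3-guide 3 h replicate 1 (-0.090). The responses differed by -0.52 ± 0.05 (adjusted p = 2.71e-08).

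Il21r encodes the private chain of the IL-21 receptor (ENSMUSG00000030745.9; chromosome 7, 125603429 to 125633570, plus strand). It stood at 95.8 and 97.8 TPM in resting control cells, 79.0 and 76.4 TPM in resting Foxp3-guide cells, 241.5 and 241.4 TPM in stimulated control cells, and 144.9 and 145.0 TPM in stimulated Foxp3-guide cells. It rose with either guide and ended lower with the Foxp3 guide. The guide difference was -0.04 ± 0.04 at 0 h, with a 95% interval of -0.12 to 0.04 (edgeR adjusted p = 0.351), and -0.54 ± 0.04 at 3 h. The 0 h difference was called lower with RLE scaling (-0.10, edgeR adjusted p = 0.0305), DESeq2 (-0.10) and upper-quartile scaling (-0.13), as well as on the TPM scale. Stimulation raised Il21r 3.20-fold and 2.28-fold, and the difference between the responses was -0.49 ± 0.05 (edgeR adjusted p = 5.29e-08).

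Il15ra encodes the chain that holds IL-15 for presentation to the beta and gamma chains. The gene (ENSMUSG00000023206.16; chromosome 2, 11705290 to 11734317, plus strand) had the lowest resting level of the 9, at 11.2 and 10.3 TPM with the control guide and 8.68 and 8.55 TPM with the Foxp3 guide. At 3 h it reached 38.6 and 36.2 TPM with the control guide and 47.3 and 43.9 TPM with the Foxp3 guide. It was the 1 gene of the 9 that was higher with the Foxp3 guide at 3 h, 33.4 ± 1.85 against 43.2 ± 0.146 CPM, a log2 change of 0.37 ± 0.05 (edgeR adjusted p = 9.32e-07). At 0 h the change was -0.03 ± 0.08, with a 95% interval of -0.18 to 0.13 (adjusted p = 0.760). Stimulation raised Il15ra 4.58-fold and 6.03-fold, which differed by 0.40 ± 0.09 on the log2 scale (edgeR adjusted p = 0.000908).

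The kinases responded differently: Jak1 fell on stimulation with either guide, while the change of Jak3 was small with a sign that followed the scale. Jak1, which pairs with the private and beta chains and also serves interferon and IL-6 family receptors (ENSMUSG00000028530.14; chromosome 4, 101152367 to 101265282, minus strand), stood at 317.9 and 339.2 TPM in resting control cells and 287.2 and 297.1 TPM in resting Foxp3-guide cells. At 3 h it stood at 114.8 and 104.1 TPM and at 66.1 and 62.0 TPM. The falls on stimulation were 2.34-fold and 3.66-fold and differed by -0.65 ± 0.06 on the log2 scale (edgeR adjusted p = 4.26e-09). At 3 h the guide effect on Jak1 was -0.56 ± 0.04, while at 0 h it was 0.09 ± 0.04 (95% interval 0.004 to 0.18; edgeR adjusted p = 0.0631). The 0 h effect turned sign on log2(TPM + 1), where Jak1 was called lower, and it was called higher without a filter and with limma-voom. Raver2, which overlaps Jak1 on the other strand, had 0 to 432 counts per library.

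Jak3, the kinase of the gamma chain (ENSMUSG00000031805.17; chromosome 8, 71676296 to 71690575, plus strand), held 112.5 and 112.8 TPM in resting control cells and 77.0 and 70.5 TPM in resting Foxp3-guide cells. At 3 h it held 99.1 and 103.5 TPM and then 71.9 and 70.3 TPM. It was lower with the Foxp3 guide at both times, with log2 changes of -0.34 ± 0.04 and -0.31 ± 0.04. Its responses to stimulation differed by 0.03 ± 0.06, with a 95% interval of -0.10 to 0.16 (edgeR adjusted p = 0.761). Insl3, which overlaps Jak3 on the same strand, had fractional expected counts of 83.0 to 160.2 per library, so that a small part of the reads was divided between the 2 genes.

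Across the 9 genes the response to stimulation differed between the guides in 7: it was higher with the Foxp3 guide for Il2ra, Il2rb and Il15ra and lower for Il7r, Jak1, Il4ra and Il21r. The test of this difference called 44.8% of all genes, 17.8% higher and 27.0% lower. For Il2rg and Jak3 it was not called, which does not show that their responses were alike beyond the intervals given above.

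Levels can be compared between genes in TPM, which is per length. In resting control cells Il2rg was highest, at 729.5 ± 2.64 TPM (SD, n = 2), followed by Il2ra and Il2rb, whose libraries overlapped, then Il7r, Jak1, Il4ra, Jak3, Il21r and Il15ra. In resting Foxp3-guide cells Il2rg still led, but Il7r, Jak1, Il2rb and Il4ra all stood above Il2ra, and the libraries of Il21r and Jak3 overlapped. After stimulation Il2ra led in control cells and Il2rg in Foxp3-guide cells, followed by Il2rg or Il2ra respectively and then by Il2rb and Il21r. In both stimulated groups the libraries of Il4ra and Jak1 overlapped, and no other neighbours in the order did.

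The make-up of the receptor set changed accordingly. Among the 6 chains other than Il2rg, Il2ra made up 32.7% ± 0.0097 (SD, n = 2) of the summed TPM in resting control cells and 10.8% ± 0.306 in resting Foxp3-guide cells. The share of Il7r was 21.02% ± 0.283 and 43.6% ± 0.943 in the same groups. A share also moves with the other chains: Il7r itself stood at 385.8 and 408.8 TPM there. Il2ra stood at 599.4 and 101.3 TPM and Il2rb at 591.6 and 222.5 TPM. After stimulation Il2ra took 66.4% ± 0.251 and 58.5% ± 0.0312, and Il7r took 2.24% ± 0.129 and 2.11% ± 0.0194. The ratio of Il2ra to Il2rb TPM was 1.01 ± 0.0083 in resting control cells and 0.456 ± 0.026 in resting Foxp3-guide cells. It reached 3.97 ± 0.049 and 2.72 ± 0.0087 at 3 h. For Il7r to Il2rg the ratio was 0.529 and 0.886 at 0 h and 0.0418 and 0.0327 at 3 h. Il2rg itself stood at 729.5 and 461.6 TPM at 0 h with the control and Foxp3 guide. The ratio of Jak3 to Jak1 went from 0.343 ± 0.015 to 0.929 ± 0.093 with the control guide, and from 0.253 ± 0.022 to 1.11 ± 0.033 with the Foxp3 guide. RNA shares do not give the number of receptors at the cell surface.

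**Figure D4:**
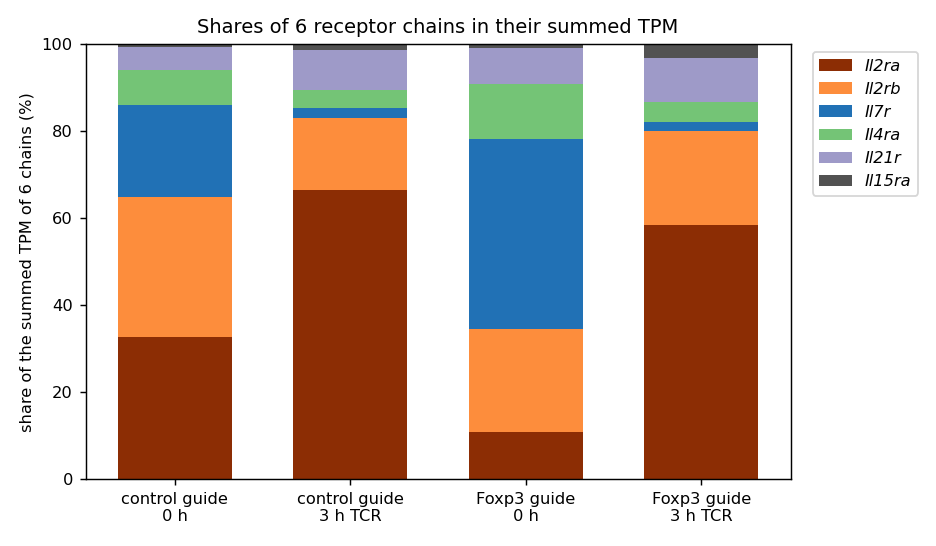
Share of each of 6 receptor chains in their summed TPM (percent, mean of 2 libraries) in the 4 groups. Il7r takes 43.6% in resting Foxp3-guide cells and Il2ra 66.4% in stimulated control cells. The TPM of Il7r itself was 385.8 in resting control cells and 408.8 in resting Foxp3-guide cells.

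Of the cytokines that bind these receptors, Il2 and Il4 differed most between the guides after stimulation. Il2 was 395.4 ± 4.39 CPM (SD, n = 2) in stimulated control cells and 3693 ± 108 CPM in stimulated Foxp3-guide cells, a log2 change of 3.22 ± 0.07. Il4, which drives type 2 helper responses, was 6.63 ± 0.828 against 199.9 ± 9.60 CPM, a change of 4.91 ± 0.07. Il21 was 7.03 ± 0.196 against 13.8 ± 0.421 CPM and Il9 had 19 against 101 counts over the 2 libraries. Of 5 cytokines tested 4 were higher with the Foxp3 guide at 3 h (Il2, Il4, Il21 and Il9) and 1, Il15, was not called, at 11 against 15 counts, where 30.7% of all tested genes were called higher. At 0 h Il2, Il4 and Il15 were called higher from 52.8 against 9.28, 176 against 5 and 61 against 14 counts. The test called 34.2% of all genes higher at 0 h. The difference between the TCR effects was called for 0 of the 5 cytokines, which had few counts at 0 h. That test called 44.8% of all genes. Il7 had at most 5 counts in a library and was not tested.

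Other chains that complete receptors with these members were measured at low to moderate levels. Il9r, the private chain for IL-9, stood at 3.41 and 4.06 CPM at 0 h and at 0.840 and 0.704 CPM at 3 h, and fell on stimulation with both guides. Crlf2, which joins Il7r to bind TSLP, stood at 36.3 to 57.8 TPM over the 8 libraries and rose on stimulation by 0.76 ± 0.06 and 0.59 ± 0.06. Il13ra1, which joins Il4ra, stayed below 1 CPM in each group's mean, and Il13ra2 had 0 counts. Of the 3 tested, 1 (Il13ra1, -1.71 ± 0.37) was lower with the Foxp3 guide at 0 h and 0 were called at 3 h. The same test called 29.1% of all genes lower at 0 h and 61.5% in either direction at 3 h.

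The other JAKs and STATs, 7 genes, were mostly lower with the Foxp3 guide at 0 h. There 6 fell and 1 rose, with a median of -0.59, where 29.1% of all tested genes were called lower and 34.2% higher. At 3 h 4 fell and 3 rose, with a median of -0.32, where the shares were 30.8% and 30.7%. Stat5a, a main carrier of the IL-2 signal, was lower at 0 h (-1.46 ± 0.04) and higher at 3 h (0.38 ± 0.04). Jak2, the kinase of the receptors for GM-CSF and IL-3, rose with the Foxp3 guide by 0.85 ± 0.04 and 1.3 ± 0.04, and with stimulation by 2.85 ± 0.05 and 3.31 ± 0.05. Stat3 fell with the guide at both times (-0.93 ± 0.04 and -0.86 ± 0.04). On stimulation 5 of the 7 rose with each guide, beside 40.9% and 40.8% of all tested genes with the control and Foxp3 guide. In control cells 1 (Stat5b, -0.50 ± 0.04) fell. In Foxp3-guide cells Tyk2 fell (-0.41 ± 0.04) and Stat5b rose by 0.26 ± 0.04, and that rise and its guide change at 3 h turned sign on log2(TPM + 1).

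Of 8 JAK-STAT inhibitors 5 fell and 2 rose with the Foxp3 guide at 0 h (median -0.59), and 5 fell and 1 rose at 3 h (median -0.41). Over all tested genes 63.3% were called at 0 h and 61.5% at 3 h. Cish, induced by STAT5, was -2.32 ± 0.04 at 0 h and -0.19 ± 0.04 at 3 h, and Socs1 was -1.99 ± 0.08 and -0.63 ± 0.06. Socs2 and Socs3 fell with the guide at 0 h (-1.08 ± 0.04 and -1.35 ± 0.05) and at 3 h (-1.09 ± 0.04 and -1.05 ± 0.05), and with stimulation as well. Ptpn6, the phosphatase SHP-1, rose at 0 h (0.66 ± 0.04) and fell at 3 h (-0.83 ± 0.04), and the small rises of Ptpn2 at both times turned sign on log2(TPM + 1). On stimulation 5 rose and 3 fell in control cells, led by Sh2b3 (2.01 ± 0.04), and 4 rose and 4 fell in Foxp3-guide cells, led by Cish (3.68 ± 0.04). Of all tested genes 40.9% rose and 40.9% fell with the control guide, and 40.8% rose and 44.5% fell with the Foxp3 guide.

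Adaptors that link these receptors to Ras and PI3 kinase fell in 5 of 6 cases at 0 h (median -0.25), Irs2 most (-0.74 ± 0.05), while Shc1 rose (0.51 ± 0.04), where 29.1% of all tested genes fell and 34.2% rose. At 3 h 3 were higher and 2 lower, beside 30.7% and 30.8% of all tested genes. The median of 0.04 turned to -0.13 on log2(TPM + 1), and the rises of Shc1 and Sos1 (0.23 and 0.15) turned sign there too. Gab2 was 0.73 ± 0.09 at 3 h, and Pik3r1, a regulatory subunit of PI3 kinase, was -0.91 ± 0.05. On stimulation Pik3r1 changed by -2.20 ± 0.04 and -2.72 ± 0.04 with the control and Foxp3 guide.

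IL-2 and STAT5 target genes, 11 in all, were lower in 9 cases and higher in 2 at 0 h with the Foxp3 guide (median -0.50), and lower in 6, higher in 2 and not called in 3 at 3 h (median -0.14). Of all tested genes 29.1% were called lower and 34.2% higher at 0 h, and 30.8% lower and 30.7% higher at 3 h. The largest falls at 0 h were in Myc (-2.39 ± 0.05) and the cyclin gene Ccnd2 (-1.66 ± 0.05), and Gzmb, which encodes granzyme B, was higher at both times (1.58 ± 0.05 and 1.28 ± 0.04). The other rise at 0 h, of Pim2 (0.21 ± 0.06), turned sign on log2(TPM + 1). On stimulation 7 rose in control cells and 8 in Foxp3-guide cells, beside 40.9% and 40.8% of all genes. Bcl2l1, which encodes the survival protein BCL-XL, rose by 5.21 ± 0.05 and 5.71 ± 0.05, and Myc rose by 4.75 ± 0.05 and 7.0 ± 0.06. The 2 responses of Myc differed by 2.25 ± 0.07, in the same direction as those of Il2ra. Osm rose by 0.18 ± 0.05 in control cells, with the sign turned by upper-quartile scaling and on log2(TPM + 1).

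As a wider frame, 25 other cytokine receptor genes were tested. With the Foxp3 guide 13 fell and 8 rose at 0 h (median -0.22), and 16 fell and 5 rose at 3 h (median -0.52), beside 8 and 1 of the 9 gamma chain genes at 3 h. All tested genes were called in 63.3% of cases at 0 h (29.1% lower) and 61.5% at 3 h (30.8% lower). Il18rap, a chain of the IL-18 receptor, was 1.92 ± 0.05 at 0 h, and Il1r2, a decoy receptor for IL-1, was -2.83 ± 0.16. Csf2rb, the common beta chain of the IL-3, IL-5 and GM-CSF receptors, fell at both times (-2.36 ± 0.11 and -2.35 ± 0.22). Ifngr1, a chain of the interferon gamma receptor, fell on stimulation (-3.22 ± 0.04 and -4.20 ± 0.05), so that Il7r was not the only receptor gene that dropped with both guides. No test compared the 9 genes with these 25.

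Genomic neighbours were examined because 2 pairs of the genes lie close together. Il2ra and Il15ra start 62.5 kb apart on chromosome 2, and Il4ra and Il21r 51.3 kb apart on chromosome 7. Within the first pair both rose on stimulation, but at 3 h the guide effect was -0.87 for Il2ra and 0.37 for Il15ra. Also within 200 kb of the Il2ra start, the glycolysis gene Pfkfb3 rose on stimulation by 2.26 ± 0.04 and 2.24 ± 0.04 and the splicing gene Rbm17 by 1.32 ± 0.04 and 0.95 ± 0.04, whereas Fbh1 (-1.55 ± 0.05 and -1.96 ± 0.05) and Ankrd16 (-0.55 ± 0.04 and -0.57 ± 0.04) fell. None of these 4 neighbours had a guide change at 0 h near that of Il2ra: the values were 0.15, 0.46, -0.01 and -0.12. In the second pair stimulation moved Il21r up and Il4ra down. Of the 4 other genes tested nearby, 2 were higher and 2 lower with the Foxp3 guide at each time. Over all tested genes 63.3% and 61.5% were called. Nsmce1 was higher with the Foxp3 guide (1.05 ± 0.05 at 0 h) and lower after stimulation. D430042O09Rik was lower with the Foxp3 guide (-0.29 ± 0.05 at 0 h and -0.67 ± 0.05 at 3 h). It also fell on stimulation (-0.69 ± 0.05 and -1.07 ± 0.05).

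**Figure D5:**
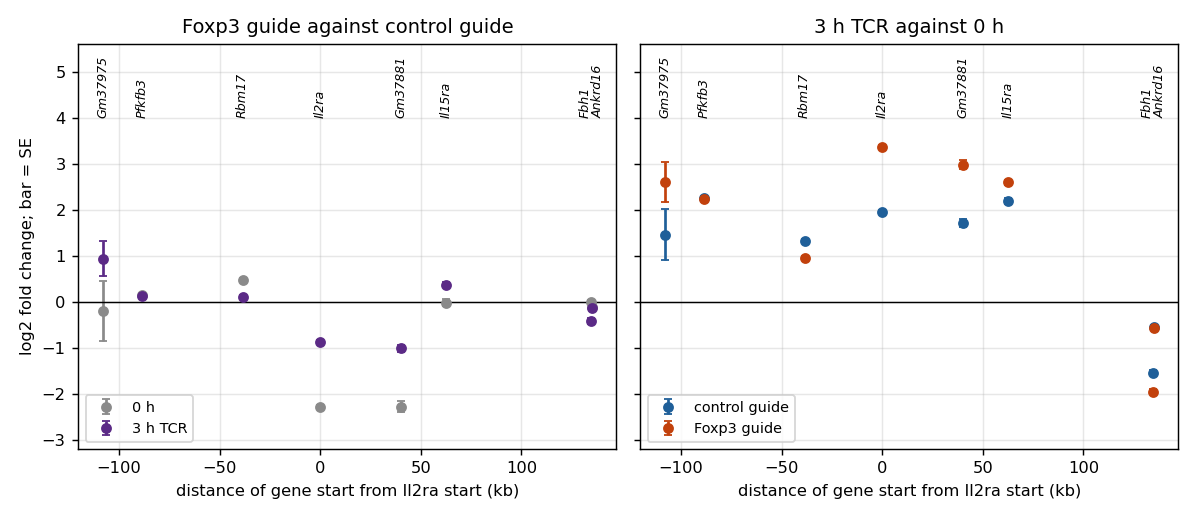
Log2 change of genes around Il2ra against the distance of their start from the Il2ra start in kb (points, edgeR estimate; bars, SE), for the guide effect (left) and the TCR effect (right). Il2ra and Gm37881, which lies inside it, are the only genes drawn below -2 in the guide effect at 0 h, and both rises and falls on stimulation lie within 200 kb of it.

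For each gene the 3 genes with the most similar profile were taken, by the root mean square difference of centred log2 CPM over the 8 libraries. The candidates were 8663 genes whose log2 CPM averaged 3 or more, leaving out numbered gene models and clones, pseudogenes and antigen receptor segments. The nearest to Il2ra were Cish (0.25), Jun (0.26) and Tmem120b (0.31), while for the other 8 genes the smallest difference was 0.018 to 0.068. Il2rb was nearest to Arl5a (0.047), Il2rg to Twsg1 (0.060) and Il7r to BE692007 (0.068) and Mknk2 (0.081). Il4ra was nearest to Fam168b (0.018), Il15ra to Baz1a (0.052), Il21r to Srf (0.052), Jak1 to Mcoln1 (0.043) and Jak3 to Aco1 (0.054). These are descriptions of 8 libraries that fall into 4 groups.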

How the data were processed

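RNA was measured in 8 libraries of mouse nTreg cells, 2 for each guide and time. Per the submitters' processing notes, reads were processed with Trim Galore 0.6.3, STAR 2.7.9a and RSEM 1.3.1 on mm10 (GRCm38); per the labels' protocols the libraries were stranded. The annotation release is not given in the sources used here. The authors deposited expected counts per gene, here rounded to whole numbers before testing, and TPM values per gene, used for levels and as an alternative scale. Of 55665 gene IDs, 55180 matched GENCODE M21 with their version and 55480 without it, and 0 sample columns were left unmatched.

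Depth, as summed expected counts of replicates 1 and 2, was 38729009 and 42698042 at 0 h and 48626432 and 45518491 at 3 h for sgNC. For sgFoxp3 it was 66804803 and 64135431, then 55865290 and 94807362. Genes were filtered with filterByExpr, scaled by TMM and fitted with edgeR 4.0.16 (quasi-likelihood, robust; R 4.3.3) with 1 mean per group and 4 residual degrees of freedom (median prior 19.1). Adjusted p-values are Benjamini-Hochberg over 16642 genes, for each of 5 comparisons; intervals are at the 95% level. Alternatives were DESeq2 1.42.0, scaling by RLE or the upper quartile, limma 3.58.1 (voom, and trend on log2(TPM + 1) and log2(TPM + 0.1)), other filters, the 4 libraries compared only, a replicate block and each library left out. A block with crossed numbers was chosen after seeing the data.

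All 9 members are described. From each other list, the genes named are the 2 largest called rises and falls of a comparison, or fewer, and, chosen after their values were seen, some whose sign depended on the scale. Neighbours were genes starting within 200 kb of a member's start. The lists were gamma chain cytokines, partner chains, other JAKs and STATs, JAK-STAT inhibitors, adaptors, IL-2 and STAT5 targets, other cytokine receptors and markers of CD4, CD8, NK, B, myeloid, erythroid and stromal cells and of TCR response. Values of some listed genes are not reported here. Members and lists were chosen with earlier results of these data known. In the guide comparison at 0 h, tested on simulated data with 16642 genes, 62%, 88%, 100% and 98% of 50 genes changed 1.2-, 1.5-, 2- and 4-fold were recovered, with 20 false calls of 194, a false share above the 0.05 threshold. For the difference between TCR effects the shares were 32%, 76%, 96% and 98%, with 20 false of 171. The changed genes were drawn from those with a mean simulated count of at least 50 per library, so recovery at lower counts was not tested. They were a far smaller part of all genes than was called in the data.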

Additional observations from a re-analysis of the deposited data

Results flagged for a closer look

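The response to TCR stimulation differed between the guides for 7 of the 9 genes, by the interaction term of edgeR's quasi-likelihood test at an adjusted p below 0.05. The difference, Foxp3 guide minus control guide on the log2 scale, was 1.41 for Il2ra, 0.80 for Il2rb and 0.40 for Il15ra. It was -1.09 for Il7r, -0.65 for Jak1, -0.52 for Il4ra and -0.49 for Il21r. Over all genes 44.8% were called in the same test. Groups of 2 libraries allow no test for an outlying library.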

How the results depend on the processing

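Over all alternatives, 811 values of the 9 genes kept their direction and side of the threshold, 23 became called, 8 lost their call and 22 changed sign. Of called values, those that changed sign were in Jak3, and among values not called sign changes were in Jak1, Il15ra, Il2rg and Jak3. For Jak1 the guide effect at 0 h was -0.17 on each TPM scale. It was called lower on log2(TPM + 1) and log2(TPM + 0.1), but not with every gene above 0 kept (limma adjusted p = 0.0813). Jak1 was called higher at 0 h without a filter (0.13), with limma-voom (0.093) and with the crossed block (0.093). For Il15ra the guide effect at 0 h was 0.0040 without a filter and, leaving out each library, -0.076 to 0.040, above 0 without Foxp3-guide 0 h replicate 1. The difference between TCR effects of Il2rg was 0.014 with RLE scaling and DESeq2, 0.015 with upper-quartile scaling, 0.032 on each TPM scale and, leaving out each library, -0.080 to 0.022, above 0 without Foxp3-guide 3 h replicate 2. That of Jak3 was -0.0010 without a filter and, leaving out each library, -0.048 to 0.089, below 0 without control 3 h replicate 1 (-0.027) and without Foxp3-guide 0 h replicate 2. For Jak3 the TCR effect with the control guide was -0.15 on each TPM scale and -0.028 with upper-quartile scaling, and with the Foxp3 guide it was -0.052 on log2(TPM + 1), with and without the filter, and -0.053 on log2(TPM + 0.1). At 0 h, 2 of the 9 genes were higher with the Foxp3 guide without a filter, with limma-voom and with the crossed block, and 0 were on the TPM scales, where 8, 8 and 7 were lower. On those scales the share of called genes that were higher moved from 54.0% to 27.9% (guide, 0 h), 49.9% to 27.4% (guide, 3 h), 50% to 37.3% and 47.8% to 38.7% (TCR effect, control and Foxp3 guide) and 39.7% to 51.5% (difference). Medians of all TCR changes moved to -0.25 and -0.24 with upper-quartile scaling and to -0.20 and -0.18 on log2(TPM + 1). For the difference between TCR effects, 4843 genes were called on log2(TPM + 1) with every gene above 0 kept, against 7457; more genes were tested there. Leaving out each library gave 1 to 2 genes higher and 4 to 4 lower at 0 h, with 9418 to 10824 genes called in all; 1 higher and 8 lower at 3 h (8882 to 10291); 5 higher and 3 to 4 lower for TCR with the control guide (13051 to 13677); 6 and 3 with the Foxp3 guide (13532 to 14544); and 3 and 4 for the difference (6541 to 7323). Il4ra lost its TCR call with the control guide without control 0 h replicate 2 (-0.077), control 3 h replicate 2 (-0.065) or Foxp3-guide 3 h replicate 1 (-0.090), and with only the 4 libraries compared (-0.094). Jak1 became called at 0 h without control 0 h replicate 2 (0.14), control 3 h replicate 1 (0.10) or control 3 h replicate 2 (0.097). With the replicate number as a block, 10319, 10034, 13527, 14111 and 7240 genes were called, against 10539, 10231, 13620, 14208 and 7457 without it, and the counts among the 9 genes were the same. Deviations of same-numbered libraries correlated at -0.21, 0.29, -0.11 and -0.05 in the 4 comparisons of 2 groups, so the numbers were not shown to pair libraries. With control 0 h numbers crossed, 10607 and 13631 genes were called for the guide at 0 h and TCR with the control guide. The causes of the changes under other scalings were not tested. Genes with few counts (Il13ra1, Il9, Il15) are limited by depth.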
